A study of Mus musculus with 3 samples.

Results

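The cells described here are Ly6c2-positive, C1q-low cells of mouse skin wounds, compared between day 10 and day 3 after injury. They were selected on measured values: a barcode entered with at least 200 detected genes, under 10% of its unique molecular identifiers (UMIs, each counting 1 captured mRNA molecule) from mitochondrially encoded genes, at least 2000 UMIs, at least 2 UMIs of Ly6c2 and under 3 UMIs summed over C1qa, C1qb and C1qc. The gate held 345 of 879 cells past the cell filter at day 3 and 85 of 1272 at day 10, together 430 of 2151 such cells and of 4877 barcodes in the whole series. It held 21 of 551 cells at day 6, which are given beside the other days as values only. Per the labels the cells were monocytes and macrophages isolated from skin wounds, the mice being male and of the inbred C57BL6/J strain with no engineered allele named in the labels, and no agent other than the injury is named. Each day is 1 droplet library pooled from a pair of mice whose cells cannot be separated. No difference between days can therefore be set against the spread between animals. No test was run, and day and library cannot be told apart. The mice's age and the gates used to isolate the cells are not given in the sources used here.

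Ly6c2 encodes part of the Ly6C surface antigen that is high on classical monocytes, the blood cells that enter damaged tissue through the chemokine receptor CCR2 and there become macrophages. C1qa, C1qb and C1qc encode the complement component C1q, which tissue macrophages make in large amounts. Monocytes that lose Ly6C and gain CX3CR1 are called nonclassical and patrol the inside of vessels, while others in tissue take up antigen presentation through MHC class II. Early wounds are known for inflammatory cytokine and chemokine production by newly arrived monocytes.

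The gated cells carried the genes of the name. Ccr2 was found in 326 of 345 cells at day 3 and 84 of 85 at day 10, and Lyz2, the lysozyme gene of myeloid cells, in 344 and 85. Ly6c2 itself stood at a median of 7 UMIs per cell at day 3 and 6 at day 10, and summed C1q at 7.36 and 16.4 CPM (UMIs of a gene per 1000000 UMIs of the summed cells), against 4977 and 6353 CPM in cells of the same libraries with at least 3 C1q UMIs and under 2 of Ly6c2, called C1q macrophages below. These values follow from the selection. Near its edges, 49 day 3 cells and 15 day 10 cells had exactly 2 Ly6c2 UMIs, with Ccr2 at 962 and 1126 CPM, and 77 and 22 cells with 1 Ly6c2 UMI fell just outside, with Ccr2 at 914 and 879 CPM. The class II gene H2-Ab1 stood at 713 and 1415 CPM just inside that edge and at 2604 and 3743 CPM just outside. By C1q, 4 day 3 cells and 3 day 10 cells had 2 UMIs, and 4 and 1 cells had 3 UMIs and were left out.

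Depth was close between the days: the median cell had 11299 UMIs and 2721 genes at day 3, and 10559 UMIs and 2667 genes at day 10. The sums held 3941703 and 915863 UMIs, so a gene at day 10 rests on fewer molecules. The median mitochondrial share was 3.83% at day 3 and 2.85% at day 10, and ribosomal protein genes took 14.7% and 21.7% of UMIs. Of the marker lists of other cell types, all 6 T cell and both Langerhans genes were at 0 in the gate on both days, and the summed dendritic list was at 148 and 230 CPM. The neutrophil list was at 222 and 154 CPM, with Ly6g, Retnlg, Camp and Ngp at 0 on both days. Other members were present. Csf3r was found in 175 and 42 cells (70.3 and 66.6 CPM) and Mmp8 in 118 and 34 (71.3 and 69.9 CPM). S100a8 was found in 61 and 7 cells (76.1 and 15.3 CPM). The 21 day 6 cells stood apart, with neutrophil genes at 2647 CPM, of which S100a9 came from 2 cells. The day 6 and day 10 libraries shared 2 cell barcodes, none of them in the gate, and the other pairs of libraries shared none. Gated cells made up 39.2% of kept cells at day 3 (exact binomial 95% interval 36.0 to 42.6), 3.81% at day 6 (2.37 to 5.77) and 6.68% at day 10 (5.37 to 8.20). Intervals here and below cover counting error only, and a share is set by the gate and the isolation as well as by the wound.

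Of 6532 genes with at least 50 UMIs over both sums, 682 (10.4%) were at least 1.5-fold higher at day 10 and 1168 (17.9%) at least 1.5-fold lower, with a median log2 ratio of -0.04. The lean towards lower genes grew with level. Among the 1373 better measured genes, those with at least 100 CPM on a day and outside the ribosomal, mitochondrial and marker genes, 74 (5.39%) were higher and 304 (22.1%) lower, and 1 gene against 21 passed 4-fold.

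**Figure D1:**
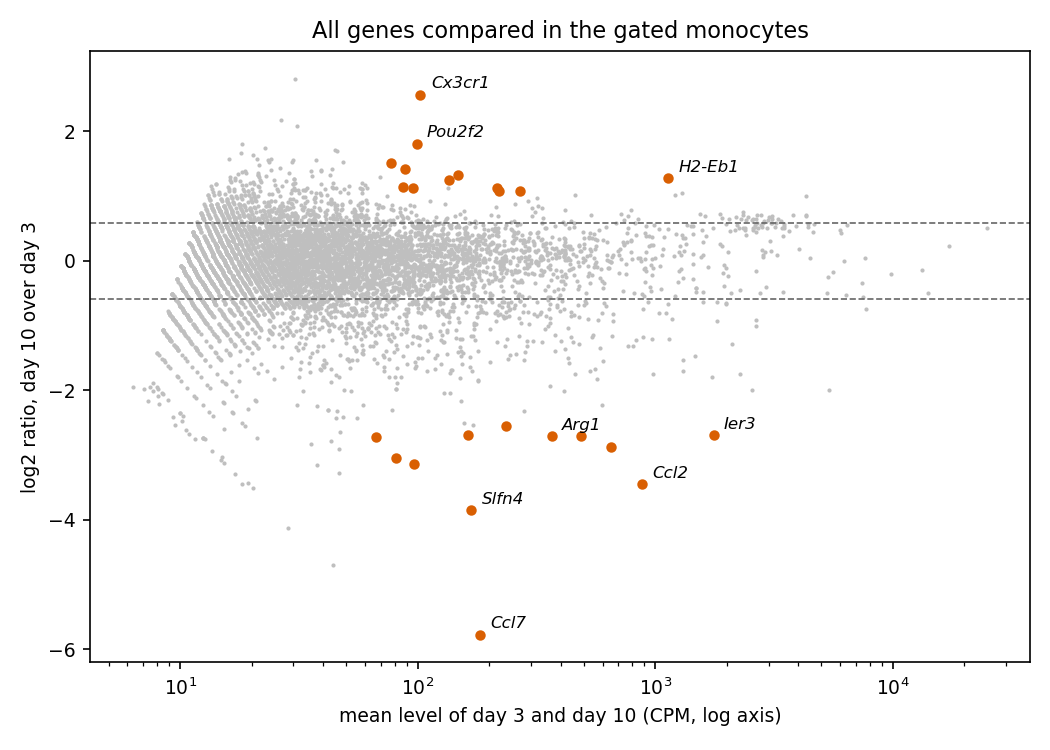
Log2 ratio of CPM, day 10 over day 3, against the mean of the levels on both days (CPM, log axis) for the 6532 genes compared in the gated monocytes. Dashed lines mark 1.5-fold, orange points are the 12 highest and 12 lowest named genes, of which 8 are labelled, and the low end reaches Ccl7, 54.6-fold lower, while the highest orange point is Cx3cr1, 5.92-fold higher.

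Chemokine genes were lower at day 10 as a group. Of the 21 listed, 16 could be compared, 14 were at least 1.5-fold lower and 0 higher, against 17.9% and 10.4% of all genes, and their median log2 ratio was -1.81. Ccl2, the main ligand of CCR2 and the signal that draws monocytes out of blood, was at 1613 CPM at day 3, 737 at day 6 and 147 at day 10. That is 10.9-fold lower at day 10 than at day 3 (95% interval of the ratio 9.23 to 13.1), and Ccl2 was found in 235 of 345 cells and 32 of 85. Ccl7, another CCR2 ligand and its neighbour on chromosome 11, went from 1411 UMIs in 99 cells (358 CPM) to 6 UMIs in 4 cells (6.55 CPM), 54.6-fold lower (25.04 to 149). Ccl12, a further CCR2 ligand of the same cluster, went from 334 UMIs to 3, which is 25.9-fold lower (8.78 to 126). In the mm10 build these 3 genes lie at chr11:82035571-82037453 (Ccl2), chr11:82045712-82047525 (Ccl7) and chr11:82101845-82103400 (Ccl12), on the plus strand. Ccl24, an eosinophil attractant, went from 225 UMIs to 0 and was 17.4-fold lower with 3 UMIs set for the count of 0. Across the alternative gates, filters and scalings Ccl7 was 4.73-fold to 105-fold lower, Ccl12 11.8-fold to 32.4-fold and Ccl2 8.90-fold to 18.7-fold. Ccl24 was 6.85-fold to 24.7-fold lower across them.

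The neutrophil attractants differed in how many cells carried them. Cxcl2 was at 8584 CPM in 263 cells at day 3 and 2152 CPM in 42 cells at day 10, 3.99-fold lower (3.81 to 4.18). Cxcl3 was at 844 and 130 CPM, 6.49-fold lower (5.41 to 7.86), but came from 79 cells at day 3 and 4 at day 10, of which 2 held 76.5% of the UMIs. It was at 2092 CPM at day 6, the highest of the 3 days, and its fold ranged from 4.49 to 130 across the alternatives. The inflammatory chemokines Ccl3 and Ccl4 were 2.44-fold and 2.89-fold lower. Ccl6 (1703 and 1273 CPM) and Cxcl16 (49.0 and 39.3 CPM) were the members compared that stayed within 1.5-fold. At the gene for CCR2 itself the level held: Ccr2 was at 892 CPM at day 3, 681 at day 6 and 1058 at day 10.

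**Figure D2:**
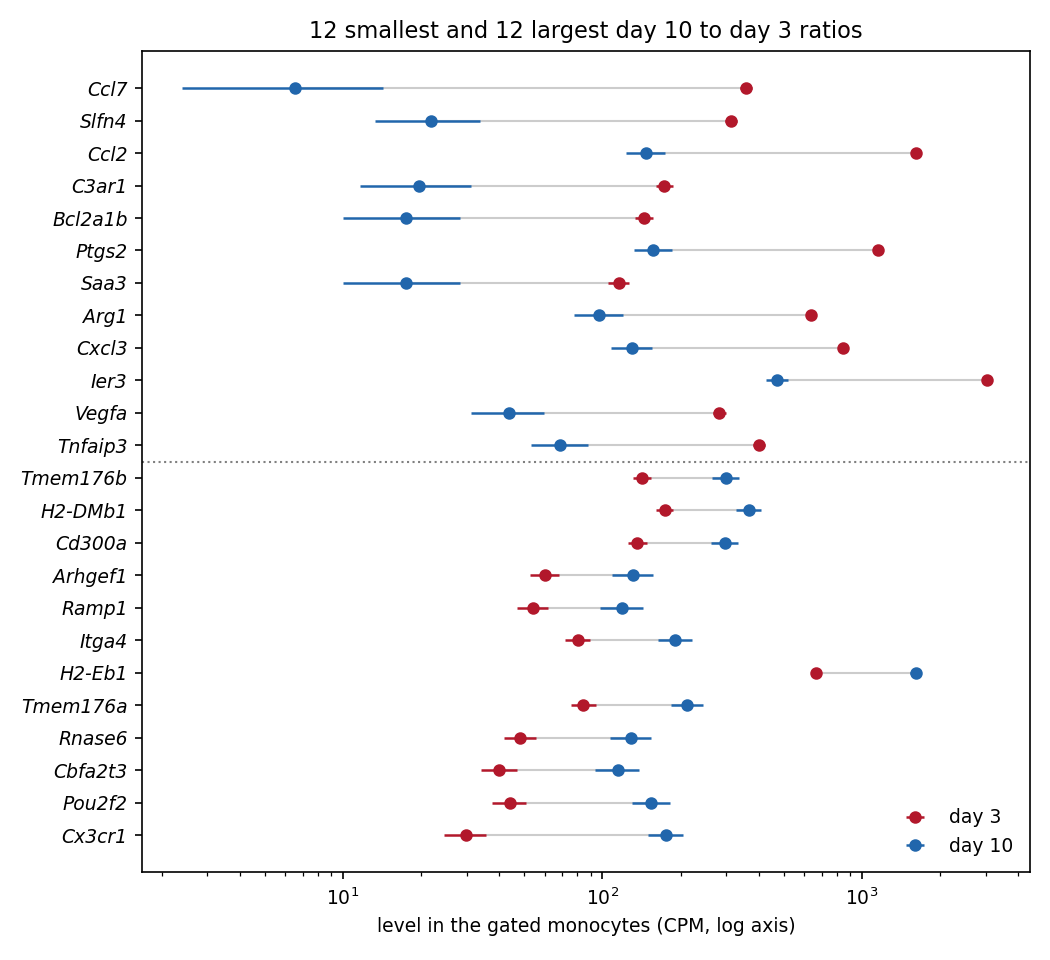
Level in the gated monocytes (CPM, log axis) of the 12 genes with the smallest and the 12 with the largest ratio of day 10 to day 3 among the 1373 genes with at least 100 CPM on a day, with exact Poisson 95% intervals for counting error. The day 10 points lie left of the day 3 points above the dotted line, from Ccl7 (358 to 6.55 CPM), and right of them below it, down to Cx3cr1 (29.7 to 176 CPM).

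Inflammatory mediators followed the same direction, with 11 of the 12 compared (18 listed) at least 1.5-fold lower, against 17.9% of all genes, 0 higher and a median log2 ratio of -1.80. Il1b, encoding the cytokine interleukin 1 beta, was at 4076 CPM at day 3, 3272 at day 6 and 1023 at day 10, 3.98-fold lower (3.73 to 4.26). Its UMIs were found in 313 of 345 and 55 of 85 cells. Ptgs2, the inducible cyclooxygenase of prostaglandin synthesis, was at 1149.5 and 157 CPM, 7.31-fold lower (6.19 to 8.69), in 222 and 19 cells. Il6 went from 147 UMIs in 48 cells to 3 in 3 cells, 11.4-fold lower (3.82 to 55.8). Osm, a cytokine of the interleukin 6 family, was 3.80-fold lower and Tnf 2.62-fold lower. The member within 1.5-fold, Inhba, was at 125 and 98.3 CPM, and 2 cells held 98.9% of its 90 day 10 UMIs. Per cell, the summed inflammatory list had a median of 44.3 UMIs per 10000 at day 3 and 6.24 at day 10, so the typical cell was lower too. Its upper quartile was 104 and 16.7, and its highest cell 536 and 137. How the summed difference divides among cells was not computed. The chemokine list had medians of 117 and 27.0.

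The genes that answer and restrain these signals were lower as well. Tnfaip3, encoding the NF-kappa B inhibitor A20, was at 402, 618 and 68.8 CPM at day 3, 6 and 10, and 5.84-fold lower at day 10 than at day 3 (4.54 to 7.64), with a range of 3.22-fold to 10.8-fold across the alternatives. Nfkbia, encoding the inhibitor I kappa B alpha, was at 2701 and 780 CPM, 3.46-fold lower (3.21 to 3.74). Of the 13 listed NF-kappa B genes 8 were at least 1.5-fold lower and 0 higher, against 17.9% and 10.4% of all genes. The transcription factor subunit genes split from the feedback genes: Rela (47.7 and 47.0 CPM), Relb (37.8 and 40.4) and Rel (131 and 102) stayed within 1.5-fold, and Nfkb1 was 1.98-fold lower. Bcl2a1b, a survival gene with near-identical copies among which UMIs may be divided, was at 145 and 17.5 CPM, 8.28-fold lower (5.05 to 14.6). It was 1.58-fold lower when the gate was applied after thinning every cell to 2000 UMIs.

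Immediate early genes, which cells switch on within minutes of a stimulus, had a median log2 ratio of -1.28. They were lower in 14 of 17 compared and higher in 0, against 17.9% and 10.4% of all genes. Ier3 went from 3048 to 472 CPM, 6.46-fold lower (5.87 to 7.13), Dusp1 from 1506 to 450 and Fos from 1156 to 496. Jun (1391 and 872 CPM) was 1.59-fold lower, and Egr1, Jund and Ier2 stayed within 1.5-fold. Read against the same shares, 6 of 11 heat shock genes and 10 of 16 unfolded protein response genes were lower, and 0 of either were higher. Their median log2 ratios were -0.63 and -0.77. Enzymatic digestion of tissue is known to induce immediate early and heat shock genes. Their part in the other differences was not tested.

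Interferon-response genes, a set switched on by type I interferon, were also lower, but less deeply. Of 37 compared (40 listed) 27 were at least 1.5-fold lower, against 17.9% of all genes, and 0 higher, and the median log2 ratio was -0.83. Slfn4 stood apart, at 314 CPM at day 3, 223 at day 6 and 21.8 at day 10, 14.4-fold lower (9.26 to 23.6) and found in 214 of 345 and 9 of 85 cells. Isg15, a ubiquitin-like protein gene and a classic readout of interferon, was at 813, 480 and 249 CPM, 3.26-fold lower (2.85 to 3.75). Irf7, which amplifies interferon signalling, was at 415, 305 and 144 CPM, 2.88-fold lower (2.41 to 3.47). Other members lay within 1.5-fold, among them Ifit3 (52.3 and 48.0 CPM) and Ifi47 (76.6 and 80.8 CPM). Irf9 (68.0 and 54.6 CPM), a gene of the pathway's own factors, was within 1.5-fold too. Some day 10 levels came from few cells: 2 cells held 70.5% of the Rsad2 UMIs and 64.9% of the Ifit1 UMIs. The per-cell median of the list was 58.0 UMIs per 10000 at day 3 and 22.0 at day 10.

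**Figure D3:**
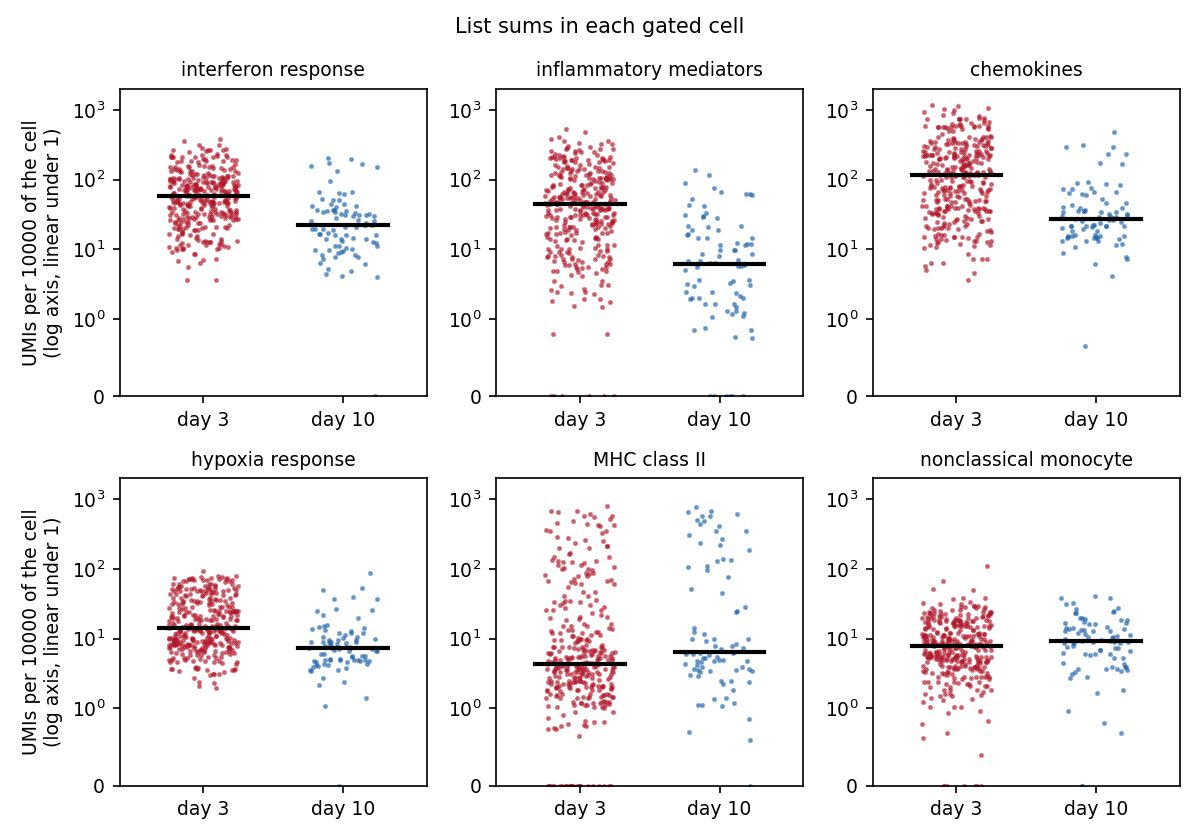
Summed UMIs of 6 gene lists in each gated cell, per 10000 UMIs of that cell (log axis, linear under 1), with 345 cells at day 3 and 85 at day 10 and the median as a bar. The inflammatory medians stand at 44.3 and 6.24, and the MHC class II panel shows a separate upper group of cells on both days, with a larger share of the cells at day 10.

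Short sequence words known from promoters of such gene groups stand just before the start of several of these genes, and 4 stretches are shown, from genes of the interferon, chemokine and class II groups. They are RefSeq sequence of GRCm38.p6, the assembly named mm10, read 5′ to 3′ along the gene's strand, in lower case with the matched word in capitals. Isg15 and H2-Aa were chosen after their values were seen. The words are GAAANNGAAA (the core of the interferon-stimulated response element), GGGNNNTTCC (the kappa B word) and CTGATTGG (the inverted CCAAT or Y box of class II promoters), each searched on both strands, and overlapping matches run together in capitals.
Isg15, chr4:156200845-156200926, minus strand: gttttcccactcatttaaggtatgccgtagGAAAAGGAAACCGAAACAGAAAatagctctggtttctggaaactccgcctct
Cxcl3, chr5:90785998-90786090, plus strand: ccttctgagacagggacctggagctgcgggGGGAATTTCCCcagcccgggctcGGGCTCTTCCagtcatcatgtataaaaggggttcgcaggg
H2-Eb1, chr17:34305775-34305842, plus strand: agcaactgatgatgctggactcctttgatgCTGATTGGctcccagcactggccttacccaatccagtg
H2-Aa, chr17:34287837-34287904, minus strand: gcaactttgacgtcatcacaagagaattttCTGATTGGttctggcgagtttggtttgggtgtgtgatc

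Over the 250 bases before each start, the interferon word was in 15 of the 30 interferon-list genes matched in the RefSeq table. It was in 3.46% of all 27025 genes there, and also in 4 of 16 matrix and protease genes. The kappa B word was in 6 of 10 NF-kappa B genes, 5 of 14 chemokine genes and 2 of 13 inflammatory mediator genes matched, against 5.31%. That word was also in 3 of 12 antioxidant, 2 of 8 heat shock and 5 of 30 interferon-list genes. The Y box was in 3 of 7 class II genes, against 4.43%, and also in 6 of 13 class I genes and 8 of 15 unfolded protein response genes. ACGTG, the core of the hypoxia response element, was in 13 of 18 hypoxia genes and 10 of 18 glycolysis genes, against 18.5%, and also in 6 of 14 respiratory chain, 7 of 15 lysosome and 4 of 9 metallothionein and zinc genes. A match describes the letters and is not evidence of binding.

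Genes of the low-oxygen response were lower at day 10. Of 17 compared (21 listed) 11 were at least 1.5-fold lower, against 17.9% of all genes, and 0 higher, with a median log2 ratio of -0.96. Vegfa, the vessel growth factor, was at 282 CPM at day 3, 201 at day 6 and 43.7 at day 10, 6.46-fold lower (4.71 to 9.09), in 142 of 345 and 18 of 85 cells, and 2.96-fold to 14.1-fold lower across the alternatives. Ero1l, an oxidase of protein folding, was 2.74-fold lower, Mif, a cytokine, 1.94-fold lower and Hif1a, the oxygen-regulated factor itself, 1.55-fold lower (385 and 249 CPM). Higd1a (161 and 162 CPM) and Bnip3 (52.8 and 47.0 CPM) were nearly level. The log2 ratio of Bnip3 ran from -1.15 to 1.35 across the alternatives, so its direction is not settled. Glycolysis genes were lower in 11 of 16 compared and higher in 0, against 17.9% and 10.4% of all genes. The glucose transporter gene Slc2a1 was at 147 and 47.0 CPM and the lactate exporter gene Slc16a3 at 234 and 112 CPM. Respiratory chain genes were all within 1.5-fold, 19 of 19. The hypoxia and glycolysis counts depend on cells near the C1q edge: with under 10 C1q UMIs allowed, 7 of 18 hypoxia and 6 of 16 glycolysis genes were lower, the hypoxia median log2 ratio was -0.24 and Slc2a1 was 1.98-fold lower. With the gate applied after thinning, Slc2a1 was 1.27-fold lower and no longer past 1.5-fold.

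In C1q macrophages of the same libraries (92 cells at day 3, 689 at day 10), hypoxia genes lay the other way. There 16 of 21 were at least 1.5-fold higher, against 21.2% of the 8045 genes compared in those cells, and 0 lower, against 13.3%. Over the 17 genes compared in both kinds of cell the median log2 ratio was -0.96 in the monocytes and 0.75 in the macrophages, with the monocyte value resting on the C1q bound as given above. Vegfa was at 388 and 654 CPM in the macrophages, and the per-cell hypoxia list had medians of 25.3 and 60.2 UMIs per 10000 there, against 14.1 and 7.36 in the monocytes. Interferon genes were lower in both kinds of cell, with all 36 compared in the macrophages at least 1.5-fold lower and a median log2 ratio of -2.70 there. Whether these ratios differ between the kinds of cell could not be tested.

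**Figure D4:**
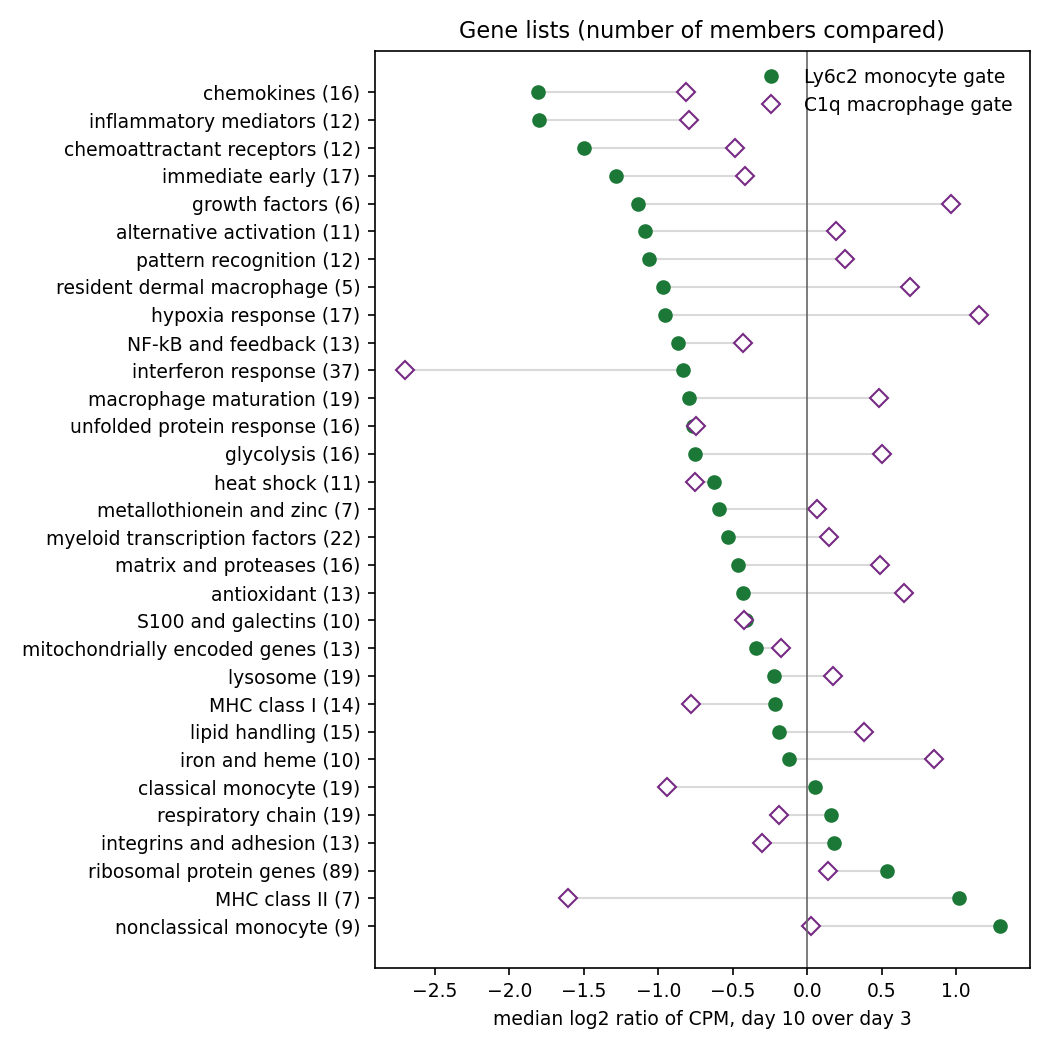
Median log2 ratio of CPM, day 10 over day 3, of each gene list with at least 5 members compared, in the Ly6c2 monocyte gate (filled) and in C1q macrophages (open), with the number of members compared in the monocytes in brackets; the macrophage median is over the members compared there. The hypoxia, growth factor and resident dermal lists lie below 0 in the monocytes and above 0 in the macrophages, and MHC class II lies the other way.

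Receptors for chemoattractants were lower in 9 of 12 compared and higher in 1, against 17.9% and 10.4% of all genes. C3ar1, the receptor for complement C3a, was at 173 CPM in 203 cells at day 3, 78.2 at day 6 and 19.7 in 8 cells at day 10, 8.80-fold lower (5.53 to 14.9), and 5.55-fold to 32.1-fold lower across the alternatives. The formyl peptide receptor genes Fpr1 (139 and 3 UMIs) and Fpr2 (321 and 12 UMIs), which sense bacterial and mitochondrial peptides, were 10.8-fold (3.61 to 52.8) and 6.22-fold lower. C5ar1, the C5a receptor gene, was 3.03-fold lower. Ccr2 (1.19-fold higher) and Ltb4r1 (1.46-fold lower) were within 1.5-fold, and the receptor that was higher was Cx3cr1. Pattern recognition genes were lower in 7 of 12 compared, with the lipopolysaccharide co-receptor gene Cd14 at 2000.4 and 618 CPM, Tlr4 3.47-fold lower and Clec4e, a receptor for damaged cells, 3.17-fold lower. Nod1 (40 and 24 UMIs) was 2.58-fold higher, and Myd88, the adaptor gene, was within 1.5-fold at 108 and 123 CPM.

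Genes that mark the change from monocyte to macrophage were lower in 12 of 19 compared and higher in 1, against 17.9% and 10.4% of all genes, with a median log2 ratio of -0.79. Maf, a transcription factor gene of macrophages, was at 153, 119 and 65.5 CPM at day 3, 6 and 10, 2.34-fold lower (1.79 to 3.10). Mertk, a receptor for dying cells, went from 75 UMIs in 58 cells to 0, 5.81-fold lower with 3 UMIs set for the count of 0. It was 3.87-fold to 6.46-fold lower across the alternatives. Adgre1, encoding F4/80, was 1.91-fold lower (117 and 61.1 CPM), Mrc1, the mannose receptor gene, 2.13-fold lower and the protease genes Lgmn and Ctsl 2.35-fold and 2.37-fold lower. Ctsl changed direction, to a log2 ratio of 0.066, with the gate applied after thinning. Csf1r, the receptor gene for the survival factor CSF1, was within 1.5-fold (261 and 307 CPM). Pltp was the member that was higher, at 33.5 and 54.6 CPM. The gate bounds C1q on both days and so removes cells far along that change, of which there were more at day 3 among Ly6c2 cells: 96 cells with at least 2 Ly6c2 UMIs had 3 or more C1q UMIs at day 3, and 8 at day 10.

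Arg1 and Saa3, which are made by wound macrophages and in acute inflammation, were lower in this gate, with their day 10 UMIs in few cells. Arg1, encoding arginase 1, was at 637 CPM in 102 cells at day 3, 804 at day 6 and 97.2 CPM in 9 cells at day 10, 6.56-fold lower (5.31 to 8.19), with 61.8% of its day 10 UMIs in 2 cells. Saa3, an acute phase gene, had 456 UMIs in 43 cells and 16 UMIs in 3 cells, 6.62-fold lower (4.03 to 11.7). Both turned with the gate. Allowing under 10 C1q UMIs added 4 day 10 cells that held 582 of the 671 Arg1 UMIs and 102 Saa3 UMIs, and the log2 ratios became 0.11 and 0.14. In C1q macrophages Arg1 was at 861 and 4274 CPM and Saa3 at 34.7 and 447 CPM.

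MHC class II genes were higher at day 10. All 7 compared (10 listed) were at least 1.5-fold higher, against 10.4% of all genes, and their median log2 ratio was 1.02. H2-Eb1, a beta chain gene, was at 663 CPM at day 3, 2959 at day 6 and 1610.5 at day 10, 2.43-fold higher at day 10 than at day 3 (2.28 to 2.59). H2-Aa went from 799 to 1620.3 CPM and H2-Ab1 from 839 to 1743, both classical chain genes. Cd74, the invariant chain that guides them, went from 2885 to 5749.8 CPM, H2-DMb1, which loads peptide, was 2.10-fold higher (1.84 to 2.40) and Ciita, the master regulator of the class, 1.90-fold higher (1.34 to 2.65), from 29.9 to 56.8 CPM. In C1q macrophages each of the 8 compared lay at least 1.5-fold below its day 3 level, with H2-Eb1 at 3299 and 1019 CPM.

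The higher class II sum lay in a minority of cells. H2-Eb1 was found in 87 of 345 cells (25.2%) at day 3 and 34 of 85 (40.0%) at day 10. At least 20 UMIs over H2-Aa, H2-Ab1 and H2-Eb1 were counted in 49 of 345 cells (14.2%, 10.7 to 18.3) and 24 of 85 (28.2%, 19.0 to 39.0). The per-cell median of the list differed little, 4.33 and 6.47 UMIs per 10000, while the upper quartile was 15.4 and 107. Dendritic markers moved with it: their sum was at 148 and 230 CPM, with Cd209a, found on monocyte-derived and conventional dendritic cells, at 124 and 194 CPM, Flt3 at 10.4 and 16.4 and Kmo at 12.9 and 15.3. The other 7 markers had at most 2 UMIs on either day, with Ccl22 at 0 on both days, Clec9a at 0 at day 3, and Xcr1 and Ccr7 at 0 at day 10. Cells with 3 or more dendritic marker UMIs were 26 of 345 (7.54%) and 12 of 85 (14.1%). Among cells with at least 20 class II UMIs, 18 of 49 at day 3 and 9 of 24 at day 10 had 3 or more dendritic marker UMIs. In the cells with no dendritic marker UMI, 282 and 57, the 3 class II genes summed to 980 CPM at day 3 and 2698 CPM at day 10. The direction was the same there, but most markers had few UMIs, so those cells may still include dendritic cells. Their part in the class II difference was not tested.

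Nonclassical monocyte genes were higher in 7 of 9 compared (14 listed), against 10.4% of all genes, with 1 lower and a median log2 ratio of 1.29. The summed list differed little, at 991 and 1077 CPM, and its per-cell median was 7.93 and 9.18 UMIs per 10000, with upper quartiles of 14.9 and 14.7. Nr4a1, which was lower, made up 652 and 217 CPM of those sums. Cx3cr1, the fractalkine receptor gene, was at 29.7 CPM at day 3, 52.1 at day 6 and 176 at day 10, 5.92-fold higher at day 10 than at day 3 (4.64 to 7.58), the highest ratio among the 1373 better measured genes. It was found in 58 of 345 cells (16.8%) and 52 of 85 (61.2%). With every cell thinned to 2000 UMIs these shares were 6.09% (3.81 to 9.15) and 24.7% (16.0 to 35.3). Among mature dendritic cells, taken as cells with at least 2 UMIs each of Ccr7 and Fscn1 and expected to lack the gene, 0 of 7 and 0 of 3 cells had a UMI at median depths of 6830 and 12247 UMIs. Those 0 counts allow shares of up to 41.0% and 70.8% and so bound the background only weakly. Ccl7, Slfn4, C3ar1, Arg1, Saa3, Cxcl3, Ccr2, Itgal and Spn also had no UMI in those 10 cells. Many other genes named here were found in them, among them Ptgs2 in 42.9% and 33.3%, and Ccl2 and Vegfa in 33.3% at day 10. Bcl2a1b was in 100% on both days, and H2-Eb1, Il1b and Itga4 each in 85.7% and 100%. Isg15 was in 85.7% and 33.3%, Tnfaip3 in 71.4% and 33.3%, Cbfa2t3 in 71.4% and 66.7%, and Ier3 in 57.1% and 66.7%. Whether those UMIs were background or the cells' own was not tested.

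Spn, encoding the sialoglycoprotein CD43 that marks nonclassical monocytes, had 38 UMIs in 28 cells at day 3 and 40 UMIs in 26 cells at day 10, 4.53-fold higher (2.83 to 7.26). Itgal, the integrin alpha chain of LFA-1, was at 40.1 and 98.3 CPM, 2.45-fold higher (1.87 to 3.20). Adgre4 was 3.50-fold higher (32 and 26 UMIs) and Ear2 2.97-fold higher (42 and 29 UMIs, 15 of the latter in 1 cell). Cells holding several of these genes made up a larger share at day 10. At least 2 of Cx3cr1, Spn, Itgal, Adgre4 and Ear2, a choice of 5 made after their values were seen, had a UMI in 48 of 345 cells (13.9%, 10.44 to 18.02) and 50 of 85 (58.8%, 47.6 to 69.4). Each of the 5 was itself higher at day 10, so the direction of these shares follows from the choice and adds no support. Nr4a1, the factor that nonclassical monocytes require, was 3.00-fold lower (2.60 to 3.48). It also belongs to the immediate early list. Fabp4, Treml4, Eno3, S1pr5 and Ace had too few UMIs to be compared.

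Among transcription factor genes, 10 of 22 compared were at least 1.5-fold lower and 2 higher, against 17.9% and 10.4% of all genes. Id3, an inhibitor of E proteins, was at 293, 74.4 and 50.2 CPM at day 3, 6 and 10, 5.82-fold lower (4.34 to 8.0), and Cebpb went from 3470 to 1845 CPM. Irf8, which directs monocyte and dendritic cell development, was 1.90-fold higher (77.4 and 147 CPM) and Batf3, its partner in dendritic cells, 2.94-fold higher (60 and 41 UMIs, 1.93 to 4.45). Spi1, encoding PU.1, was within 1.5-fold at 508 and 632 CPM. Outside the lists, Pou2f2, encoding the factor OCT2, was at 43.9, 29.8 and 154 CPM, 3.51-fold higher (2.79 to 4.41). Cbfa2t3, a corepressor gene, was 2.86-fold higher (2.21 to 3.68) and Rnase6, an antimicrobial ribonuclease gene, 2.67-fold higher (2.11 to 3.38). Tmem176a and Tmem176b, membrane protein genes that overlap on opposite strands of chromosome 6, were 2.51-fold and 2.10-fold higher, and UMIs of the overlap may be shared. Itga4, the alpha chain of the integrin VLA-4, was 2.38-fold higher (80.2 and 191 CPM). Ramp1, a receptor component gene, Cd300a, an inhibitory receptor gene, and Arhgef1 were 2.17-fold to 2.20-fold higher.

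The genes of the classical monocyte state held their level or moved apart. Of 19 compared 12 were within 1.5-fold, 3 were higher and 4 lower, with a median log2 ratio of 0.05. Those counts lie near the 10.4% higher and 17.9% lower of all genes. Plac8 was at 2663 and 2986 CPM and Ifitm3 at 6238 and 6199. Vcan, the proteoglycan versican, was 2.38-fold lower (2.09 to 2.73), Ms4a4c 2.26-fold lower, and F10 and Chil3 1.73-fold and 1.59-fold lower. Mgst1, a glutathione transferase gene, was 1.75-fold higher and Ifitm6 1.66-fold higher. In C1q macrophages, which lack Ly6c2 by selection, the same list had a median log2 ratio of -0.94.

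The other lists are read against the 17.9% lower and 10.4% higher of all genes. Ribosomal protein genes were higher in 30 of 89 compared, lower in 1, with a median log2 ratio of 0.54. Of 11 alternative activation genes 7 were lower and 1 higher, and of 6 growth factor genes 3 were lower and 1 higher. Of 16 matrix and protease genes 8 were lower and 1 higher, with Thbs1, encoding thrombospondin 1, at 3495 and 1036 CPM, while Fn1, encoding fibronectin, stood at 979 and 1008 CPM. Mmp12, an elastase gene, was 7.03-fold higher (4.37 to 11.5), but 93.9% of its 49 day 10 UMIs came from 2 cells. Of 5 resident dermal macrophage genes 4 were lower and 0 higher, and of 7 metallothionein and zinc genes 4 were lower and 0 higher. Lysosome, lipid handling, antioxidant, and iron and heme genes went both ways, with 5 of 19, 5 of 15, 4 of 13 and 3 of 10 lower and 3, 2, 3 and 1 higher, several of them near those shares. Integrin and adhesion genes were within 1.5-fold in 9 of 13, and S100 and galectin genes in 7 of 10. MHC class I genes were within 1.5-fold in 12 of 14 and lower in 2. Cell division genes had few UMIs, and the 3 that could be compared were all within 1.5-fold.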

How the data were processed

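The authors deposited UMI counts per gene and barcode, as raw whole numbers per the file headers, 1 matrix for each of 3 days. Reads were processed with Cell Ranger 3.0.2 and mm10, per the submitters' processing notes. For the annotation release: not given in the sources used here. The gate and gene lists were chosen with earlier results of these data known. UMIs of gated cells were summed per library and scaled to CPM. A gene needed 50 UMIs over both days, and a library under 3 UMIs of it was set to 3. Ratios carry exact conditional binomial, levels exact Poisson and shares exact Clopper-Pearson 95% intervals. Only the ratio intervals were tested on simulated counts. Those were Poisson draws of the sums, without the clustering of UMIs in single cells. Ly6c2 and the C1q genes were left out of the gene counts. Named were, at 100 CPM or more on a day, the 12 highest and 12 lowest ratios, leaving out mitochondrial, ribosomal, unnamed-model and other-type marker genes, plus up to 4 members per list (2 in each direction); other list members printed were chosen after their values were seen. Scrublet (scanpy 1.11.5) called 4 day 3 and 0 day 10 gated cells doublets; they were kept. Of 31053 gene identifiers, 30934 matched GENCODE vM21 for coordinates. The alternatives tried were 16 planned and 2 chosen after seeing the data. TMM factors came from edgeR 4.0.16, used for scaling only.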

Additional observations from a re-analysis of the deposited data

Results flagged for a closer look

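Some values of the gated monocytes and of the C1q macrophages of the same libraries lay in opposite directions between day 3 and day 10. None of these differences between the kinds of cell was tested, since each day has 1 library. All values here are log2 ratios of CPM, day 10 over day 3. The MHC class II list had a median of 1.02 in the monocytes and -1.60 in the macrophages. The hypoxia list had -0.96 and 1.15, the growth factor list -1.14 and 0.96, and the resident dermal list -0.97 and 0.69. Those macrophage medians cover all members compared there, and over the members compared in both kinds of cell they were 0.75, 0.29 and 0.61 in the same order, and -1.59 for class II.

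Of the 127 named genes 26 lay past 1.5-fold in opposite directions, 13 lower and 13 higher in the monocytes. The 127 were chosen as the extremes of the monocyte ratio, overall and within lists. In the macrophages 21.2% of all genes compared were at least 1.5-fold higher and 13.3% lower. The share in opposite directions among all genes was not computed, so the count of 26 is a description only. Of those lower in the monocytes, Ccl8 was at -2.75 there and 3.75 in the macrophages, Ankrd37 at -2.74 and 1.49, Saa3 at -2.73 and 3.69, Arg1 at -2.71 and 2.31, and Vegfa at -2.69 and 0.75. Mertk was at -2.54 and 1.38, Hspb1 at -2.17 and 1.85, Abca1 at -1.66 and 1.43, Slc2a1 at -1.65 and 0.83, and Ctsl at -1.25 and 1.25. Stab1 was at -1.03 and 0.61, Slc7a11 at -0.98 and 0.89, and Fth1 at -0.75 and 1.53. The day 10 monocyte counts of Ccl8, Mertk and Hspb1 were under 3 UMIs and were set to 3. Of the day 3 UMIs of Ccl8 and Hspb1, 2 cells held 94.3% and 91.4%. Without the cell with most UMIs of each gene, Ccl8 and Hspb1 were both at -0.0099 in the monocytes.

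Of those higher in the monocytes, Batf3 was at 1.56 there and -2.32 in the macrophages, Cbfa2t3 at 1.52 and -1.71, Rnase6 at 1.42 and -2.77, Tmem176a at 1.33 and -0.72, and H2-Eb1 at 1.28 and -1.69. Itga4 was at 1.25 and -1.11, Ramp1 at 1.14 and -1.34, H2-DMb1 at 1.07 and -1.92, and Tmem176b at 1.07 and -1.0. H2-DMa was at 0.96 and -1.59, Ciita at 0.92 and -1.58, Lpl at 0.63 and -1.41, and Clec10a at 0.60 and -1.49. The monocyte values of Arg1, Saa3, Ctsl, Fth1 and Lpl change direction under another gate or cell filter, as the next section gives.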

How the results depend on the processing

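The alternatives changed the scaling, the minimum count, the gate, the cell filter and the weight of single cells. Over 18 alternatives, a value past 1.5-fold changed sign in 2 of 558 list medians and 8 of 2171 named-gene ratios. Those totals include values within 1.5-fold, whose sign changes were not counted. The cell division median, for example, was 0.11 and kept its sign in 12 of 18 alternatives. Genes at least 1.5-fold higher numbered 682 of 6532 in the main comparison and 1157 of 8454 with a minimum of 20 UMIs. They numbered 176 of 2970 with a minimum of 200 and 265 of 2295 after thinning each gated cell to 2000 UMIs before summing. Genes lower numbered 1168 of 6532 in the main comparison, 551 of 2970 with the minimum of 200 and 593 of 2295 after that thinning. Nonclassical genes higher numbered 4 of 6 with at least 5 Ly6c2 UMIs, and 3 of 4 each with the minimum of 200, with the gate applied after thinning, with sums thinned, and without cells carrying markers of other types. Hypoxia genes lower numbered 7 with under 10 C1q UMIs and 7 with the gate applied after thinning. The gated share of cells was 19.9% at day 3 and 2.75% at day 10 with the gate after thinning, 48.0%, 6.72% (day 6) and 8.41% with 1 Ly6c2 UMI, and 26.5% and 4.09% (day 10) with 5.

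Of the values past 1.5-fold, the log2 ratios that changed sign were Saa3 (0.14) and Arg1 (0.11) with under 10 C1q UMIs. With the gate after thinning, which held 35 day 10 cells, they were Saa3 (0.61), Arg1 (0.89), Ctsl (0.066), Fth1 (0.075) and the metallothionein and zinc median (0.072). There 2 cells with 3 or more C1q UMIs as deposited held 369 of 389 Arg1 UMIs. Without cells carrying markers of other types, the granule and progenitor median was 0.084 and Lpl -0.21. Leaving out each gene's cell with most UMIs, an alternative chosen after seeing the data like that on dendritic markers, gave -1.31 for Hbegf, which rested on 2 day 10 cells. The cause of the other changes was not tested. Each day is 1 library, with 345 gated cells at day 3 and 85 at day 10, and day 6 with 21 cells gives no comparison. No paired analysis was possible because each day has 1 library.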
